A study of Mus musculus with 6 samples.

Results

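The genes described here are the clustered and non-clustered protocadherins, as measured by nuclear RNA-seq in mouse embryonic stem cells (ESCs). Members were the entries of the gene table whose RefSeq identifier maps to a protein-coding mouse symbol beginning with *Pcdh* and whose pooled level was above 0. This gave 47 genes, 35 clustered (symbols beginning *Pcdha*, *Pcdhb* or *Pcdhg*) and 12 single, of 20633 entries in all. Of the 69 protein-coding protocadherin symbols in the RefSeq table, 22 had no entry and were not analysed here. These were 12 of 14 alpha, 6 of 22 beta and 4 of 21 gamma genes, and no single gene. No protocadherin entry was listed at 0, and every symbol had 1 entry. The pseudogene *Pcdhgb8* had an entry within the gamma cluster and was left out because it is not protein-coding.

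The cells were *Rybp* fl/fl;*Yaf2* -/- mouse ESCs, grown in serum with leukaemia-inhibiting factor on gelatin. RYBP and YAF2 are related subunits of variant Polycomb repressive complex 1 (PRC1), so these cells lacked YAF2 throughout and lost RYBP when 4-hydroxytamoxifen (OHT) was given. There were 3 UNT libraries, from untreated cells, and 3 OHT libraries, from cells given OHT at 800 nM for 96 hours. All 6 libraries share the *Yaf2* deletion and the floxed *Rybp* alleles, and they come from a single engineered line. The level used here is the base mean, which is the read count of an entry divided by the size factor (relative depth) of each library and averaged over all 6 libraries. It therefore describes UNT and OHT cells together and has no spread between replicates, and no comparison of OHT with UNT cells was made here.

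Protocadherins form the largest group of cadherins, cell-surface proteins that bind to like molecules on neighbouring cells. In the clustered genes, each alpha or gamma variable exon has its own promoter and is spliced to constant exons at the 3' end of its cluster, whereas each beta gene is a separate single-exon gene. Neurons switch on different combinations of these promoters through CTCF and cohesin, which gives each cell a surface identity used in self-avoidance. The single protocadherins lie apart as ordinary genes and include the delta-1 and delta-2 families, which act in cell sorting, axon guidance and synapse formation. In ESCs, Polycomb complexes bind the CpG-rich promoters of many developmental genes and hold them at a low level.

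The 10 ESC markers were all expressed above the median of all entries per kb of locus, from 66.1 base mean per kb for *Esrrb* to 2183 for *Tdgf1*. *Rybp*, the floxed gene, had a base mean of 13983, and *Yaf2*, the deleted gene, a base mean of 3.24. Neural markers ranged from 0.00506 per kb for *Dcx*, the neuroblast protein doublecortin, to 82.0 for *Nes*, the filament protein nestin. Fibroblast markers ranged from 0.0424 per kb for *Postn* to 22.0 for *Col1a1*. Endothelial markers ranged from 0.282 per kb for *Cdh5* to 38.1 for *Pecam1*. Of these lists 3 of 8, 2 of 6 and 1 of 4 genes were above the median of all entries, and their part in the protocadherin levels was not tested. In bulk RNA, fewer cells expressing a gene and less RNA per cell cannot be told apart. The size factors of the 6 libraries, recovered from the low base means, ran from 0.664 to 1.48, a ratio of 2.23 between the largest and the smallest.

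The gamma cluster carried most of the signal of the 47 protocadherins. Gamma and alpha entries overlap, because each runs from its own start to the end of its cluster, and their values cannot be added. Counting each of these clusters once, by its longest entry, these genes summed to a base mean of 5640, of which 75.1% lay in the gamma cluster, 21.7% in the 12 single genes, 1.61% in the longest alpha entry and 1.53% in the 16 beta genes. These shares are of base means with no correction for length, so genes with long loci weigh more in them. The longest gamma entry covers its whole cluster, but the longest alpha entry, *Pcdhac1*, covers only 37.7% of the alpha cluster, so the alpha share leaves out the stretch upstream of it. Per kb of locus, the scale on which levels of different genes are compared throughout, the median was 25.1 for the 17 gamma entries, 0.985 for the 2 alpha entries and 0.735 for the 16 beta genes. The median was 0.342 for the 4 delta-1 genes, 2.91 for the 5 delta-2 genes and 0.169 for the other 3 single genes. The median of all 19133 entries with a locus and a level above 0 was 12.1 base mean per kb. All 17 gamma entries were above this median, and none of the 12 single genes and none of the alpha and beta genes was.

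**Figure D1:**
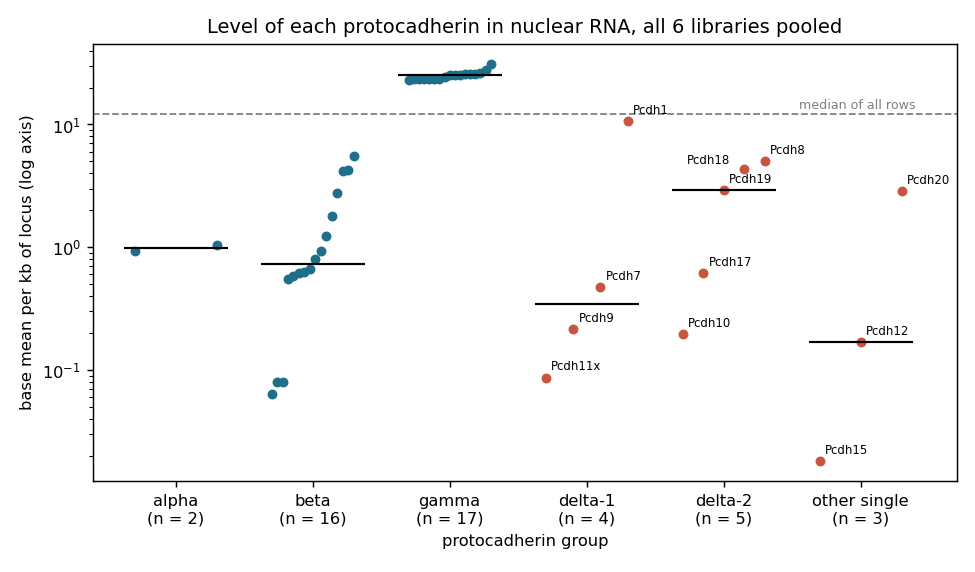
Base mean per kb of locus (log axis) for the 47 protocadherins by group, with 1 point per gene, black bars at the group medians and a dashed line at the median of all entries. Gamma entries sit above the dashed line at 23.1 to 31.2 per kb, and every other protocadherin sits below it, *Pcdh1* nearest to it at 10.6 and *Pcdh15* lowest at 0.0180.

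The gamma cluster spans chromosome 18 from 37661775 to 37841873 (GRCm38) on the plus strand. Its entries have 4 exons each, a variable first exon and the 3 constant exons they share. The 5 highest base means in the family were those of the 5 entries that start furthest upstream. *Pcdhga1* had a base mean of 4237, *Pcdhga2* 4033, *Pcdhga3* 3901, *Pcdhgb1* 3740 and *Pcdhga4* 3657. These values follow the length of the entry, since the locus of *Pcdhga2* lies within that of *Pcdhga1*, and so on along the cluster. In each of the 16 neighbouring pairs of gamma entries the longer had the higher base mean, down to 620.6 for *Pcdhgc5*, the shortest. The order of the gamma entries is thus fixed by their nesting and says nothing on which variable exon was used most.

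The difference between neighbouring entries gives what was counted between their starts, and this can be set per kb. Genes named from here to the end of the gamma account, other than the 5 above, were chosen after their values were seen. Over the 17 intervals the density ranged from 12.7 to 48.5 base mean per kb, with a median of 23.3. The highest lay between the starts of *Pcdhgc3* and *Pcdhgc4*, and the lowest between those of *Pcdhga6* and *Pcdhga7*. *Pcdhgc3* belongs to the C-type isoforms, which are known for broad rather than selective use. The 8.67 kb that begin with it held 420.0 of base mean. The interval after it, from *Pcdhgc4* to *Pcdhgc5*, had 14.7 base mean per kb, and the 22.3 kb from *Pcdhgc5* to the end, which hold the constant exons, had 27.8.

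Across the upstream part of the cluster the density varied less, from 12.7 to 28.4 base mean per kb over the *Pcdhga* and *Pcdhgb* intervals. The 103.8 kb from the start of *Pcdhga1* to that of *Pcdhga12* had 21.4 base mean per kb, and the 40.8 kb from there to *Pcdhgc3*, in which no other protein-coding gamma gene starts, had 22.2. The first interval, at *Pcdhga1*, had 28.4 per kb. Every gamma interval exceeded the median of all entries, and also the highest single protocadherin. The smallest interval density was 2.30 times the highest beta gene per kb.

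**Figure D2:**
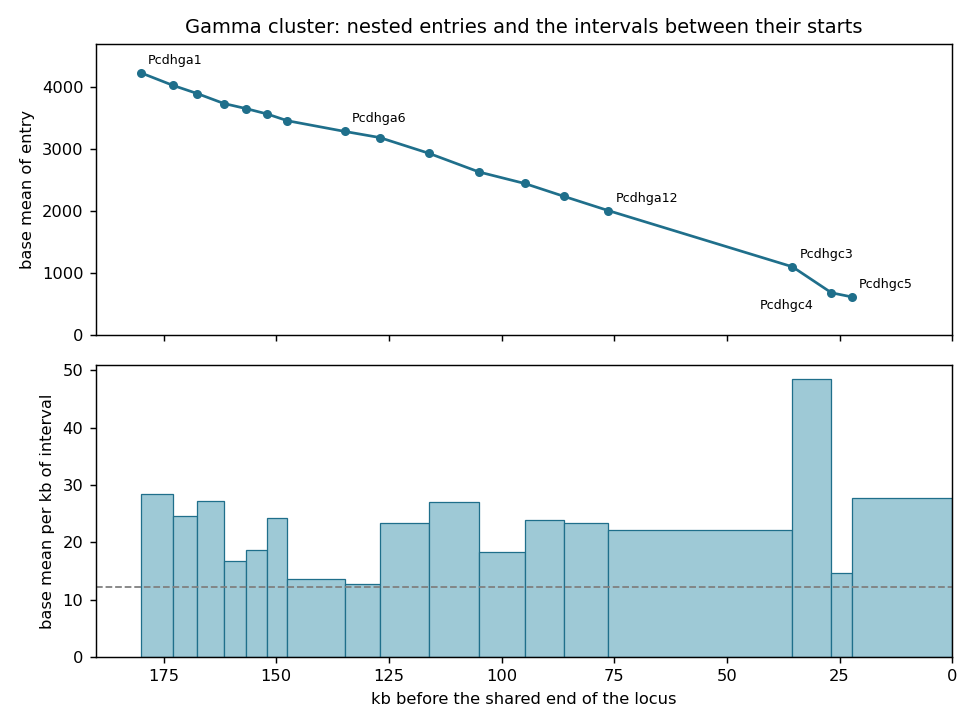
Top, base mean of each of the 17 gamma entries against the distance of its start from the shared end of the locus, in kb. Bottom, base mean per kb of each interval between neighbouring starts, with a dashed line at the median of all entries. The entry values fall in steps from 4237 to 620.6 as entries shorten, while the interval density stays between 12.7 and 28.4 except for 48.5 at *Pcdhgc3*.

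Other genes lie close to the gamma cluster. *Diaph1*, an actin nucleator on the opposite strand, ends 1.73 kb beyond the gamma cluster and had 97.1 base mean per kb. *Taf7*, a subunit of the general transcription factor TFIID, and *Slc25a2*, a mitochondrial carrier, lie between the beta and gamma clusters on the opposite strand and had 477 and 29.6 per kb. The libraries were strand-specific, but whether strand was used in counting is not given in the sources used here. The part of antisense and read-through RNA in the gamma values was not tested.

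The alpha cluster was represented by its last 2 first exons, *Pcdhac1* and *Pcdhac2*, which are C-type isoforms like the last 3 gamma exons. *Pcdhac1* (chromosome 18, 37090136 to 37187657) had a base mean of 90.8, or 0.931 per kb. *Pcdhac2* (37143678 to 37187663) had a base mean of 45.7, or 1.04 per kb. The entries overlap, and the 53.5 kb between their starts had 0.843 per kb. The density was thus similar on both sides of the *Pcdhac2* start. Per kb, the longest gamma entry was 25.3 times the longest alpha entry, although both clusters share the same arrangement of exons.

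The beta cluster spans chromosome 18 from 37264998 to 37521419. Its genes do not overlap, so each value stands on its own. The 5 lowest of all clustered genes were beta genes. *Pcdhb5* and *Pcdhb10* each had a base mean of 0.225, *Pcdhb13* 0.292, *Pcdhb21* 1.48 and *Pcdhb1* 1.62. The highest, named after their values were seen, were *Pcdhb2* at 15.3, *Pcdhb14* at 14.7, *Pcdhb18* at 14.0 and *Pcdhb22* at 12.9. These 4 genes made up 66.1% of the beta sum of 86.2. The other 7 beta genes lay between the groups.

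Per kb of locus, *Pcdhb2* was again highest at 5.53, followed by *Pcdhb14* at 4.27 and *Pcdhb22* at 4.22, and *Pcdhb5* was lowest at 0.0638, a range of 86.7-fold. Per kb of its annotated transcript, which is longer than the RefSeq locus for some beta genes, *Pcdhb2* had 5.45, *Pcdhb18* 2.78, *Pcdhb22* 1.96 and *Pcdhb14* 1.69. *Pcdhb2* was thus the highest by either length, while *Pcdhb14* and *Pcdhb22* moved closer to the rest. In chromosomal order, the 3 genes with base means under 1 (*Pcdhb5*, *Pcdhb10* and *Pcdhb13*) lay in the same central stretch as the 6 genes with no entry (*Pcdhb6* to *Pcdhb9*, *Pcdhb11* and *Pcdhb12*).

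**Figure D3:**
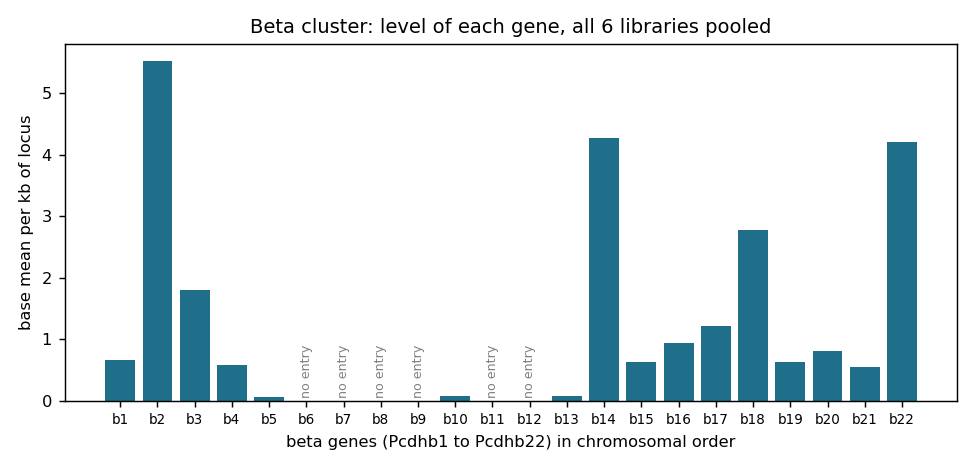
Base mean per kb of locus for the 22 beta genes in chromosomal order, with 1 bar per gene and genes with no entry marked. *Pcdhb2* stands highest at 5.53, with *Pcdhb14*, *Pcdhb18* and *Pcdhb22* at 2.78 to 4.27, and *Pcdhb5*, *Pcdhb10* and *Pcdhb13* are under 0.08.

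Beta genes are similar in sequence, which matters for reads of 40 bases. Of all 40-base stretches in the transcripts of each of the 16 beta genes with an entry, between 0% (*Pcdhb1*) and 12.8% (*Pcdhb21*) also occurred in a transcript of another gene, with a median of 5.44%. In the 6 beta genes with no entry the share was 11.4% to 65.1%, with a median of 12.6%. The gene set had been filtered on mappability. Among the gamma entries the shared portion was 37.2% to 99.2%. It includes the constant exons common to all of them, and for some entries also transcripts that overlap the variable exon, as for *Pcdhga10*, the highest, whose leading partner was *Gm26672*. For the 12 single genes the median was 0.0262%, with *Pcdh7* highest at 20.6% and *Pcdh8* next at 8.57%.

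For base means under 10 the reads of each library could be recovered, because the base mean of 1 read differs between libraries and the sum has 1 whole-number solution for 3563 of 3565 such entries. Which library was UNT or OHT is not known from these sums, so libraries are given by size factor only. This applied to 12 beta genes and to *Pcdh12*, with 206 reads in all. Most recovered counts above 0, 79.3% over all such entries, were even, so the number of independent fragments may be smaller than the number of reads. *Pcdhb5* and *Pcdhb10* each rested on 2 reads in 1 library, and *Pcdhb13* on 2 reads in 2 libraries. *Pcdhb21* had 12 reads in 2 libraries and *Pcdhb1* 8 reads in 3 libraries. Each of these 5 genes thus had no read in at least 3 libraries, and their order was not resolved at this depth.

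*Pcdhb3*, with 43 reads, was the only beta gene among these 12 with reads in all 6 libraries. Its normalised reads per library ranged from 2.03 to 15.1, with a median of 5.11. *Pcdhb16* had 28 reads in 5 libraries, from 0 to 15.1 with a median of 2.84, and *Pcdhb17* had 24 reads in 5 libraries, from 0 to 9.04 with a median of 3.32. All 3 of these genes, named after their values were seen, were highest in the library with the smallest size factor. Summed over the 12 genes, the normalised reads were 54.8, 17.1, 4.07, 24.7, 23.5 and 51.2 in the libraries from largest to smallest size factor. The deepest and the shallowest library were therefore both high, and the library of the third-largest size factor was lowest, with 4 beta reads in all. For comparison, the sums over all low entries in the same order were 12398, 9518, 8840, 9364, 12484.5 and 11206. The beta sums thus differed more between libraries than the sums over all low entries did. They rest on 185 reads in 12 genes, and so small a sum varies more for its size alone. The comparison therefore cannot show a trait of the beta genes.

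**Figure D4:**
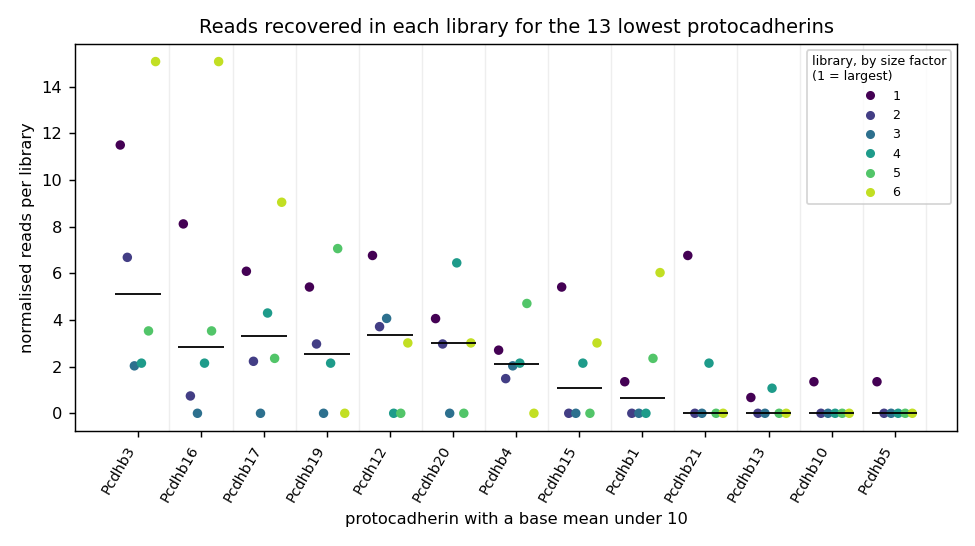
Normalised reads in each of the 6 libraries (points, coloured by rank of size factor) for the 13 protocadherins with base means under 10, with black bars at the medians. *Pcdhb3* has reads in all 6 libraries, from 2.03 to 15.1, whereas *Pcdhb21*, *Pcdhb13*, *Pcdhb10* and *Pcdhb5* have medians of 0.

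The 12 single protocadherins ranged in base mean from 2.93 to 308.9, and 79.1% of their sum of 1226 lay in *Pcdh19*, *Pcdh1*, *Pcdh7* and *Pcdh9*. As their loci differ widely in length, their order per kb was different. *Pcdh1* was 591 times higher per kb than *Pcdh15*, which has the longest locus. Lengths are those of whole RefSeq loci, and a counted entry may span less of its locus. The *Pcdh15* promoter window lies far inside its locus, so this ratio may be too high.

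The delta-1 genes encode protocadherins with a long extracellular region and a cytoplasmic tail that binds protein phosphatase 1. *Pcdh1* (chromosome 18, 38185914 to 38212048, minus strand), an adhesion gene of epithelia and neurons, had a base mean of 277 and 10.6 per kb, the highest of the single genes per kb. *Pcdh7* (chromosome 5, 57716145 to 58133236) had a base mean of 196 and 0.470 per kb. *Pcdh9* (chromosome 14, 93013700 to 93892834, minus strand), a neuronal adhesion gene, had a base mean of 188 and 0.214 per kb. *Pcdh11x* (chromosome X, 120290238 to 120910622) had a base mean of 53.7 and 0.0865 per kb. The last 3 have loci of 417 to 879 kb, so their base means rest on a thin cover of reads.

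The delta-2 genes encode shorter proteins, several of which bind the WAVE complex that drives actin assembly. *Pcdh19* (chromosome X, 133582860 to 133689044, minus strand), the gene altered in a female-limited epilepsy, had the highest base mean of the single genes, 308.9, and 2.91 per kb. *Pcdh8* (chromosome 14, 79766772 to 79771312, minus strand), also known as arcadlin or PAPC and active in paraxial mesoderm, had a base mean of 22.9 and, with its short locus, 5.04 per kb. *Pcdh18* (chromosome 3, 49743291 to 49757383, minus strand) had a base mean of 60.6 and 4.30 per kb. *Pcdh17* (chromosome 14, 84443563 to 84537565) had a base mean of 57.8 and 0.615 per kb. *Pcdh10* (chromosome 3, 45378398 to 45434579), also known as OL-protocadherin, had a base mean of 11.0 and 0.195 per kb, the lowest of the delta-2 genes on both scales.

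The other 3 single genes were not counted with the delta families here. *Pcdh20* (chromosome 14, 88464743 to 88471396, minus strand) had a base mean of 19.1 and 2.86 per kb. *Pcdh15* (chromosome 10, 73096277 to 74649831), which forms the tip links of hair cells, had a base mean of 27.9 over 1554 kb, or 0.0180 per kb. *Pcdh12* (chromosome 18, 38267092 to 38284401, minus strand), a gene of endothelium and trophoblast, had the lowest base mean of the single genes, 2.93, or 0.169 per kb. Its 21 reads came from 4 libraries, with normalised reads from 0 to 6.76 and a median of 3.36. All 4 endothelial markers were higher per kb than *Pcdh12*. *Cdh5* at 0.282 and *Tek* at 4.13, with *Kdr* between them, were below the median of all entries, and *Pecam1* at 38.1 was above it. Whether endothelial-like cells gave the *Pcdh12* reads was not tested.

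Polycomb complexes are recruited to CpG-rich promoters, so the promoter windows of the single genes were examined (RefSeq, GRCm38.p6, from 250 bases before to 50 bases after the start). Windows were given for 9 members, all single genes, and 10 windows in all since *Pcdh9* had 2. The windows held 4 to 26 CpG, against a median of 7 over all 32851 promoters. *Pcdh17* had 26 CpG, *Pcdh10* 24 and *Pcdh18* 23, and 26.5% of all promoters had 20 or more. *Pcdh9* had 18 and 19 in its windows, *Pcdh19* 18, *Pcdh8* 14, *Pcdh7* 11, *Pcdh15* 8 and *Pcdh20* 4. The motif CGCT, the core of the conserved element in clustered protocadherin promoters, was found on either strand in all 10 windows and in 61.8% of all promoters. It contains a CpG, and the share over all promoters was not matched for CpG number. The 2 windows of *Pcdh9* also overlap, so no enrichment can be read from these shares. The count of the motif followed the number of CpG only in part. *Pcdh10* and *Pcdh18* had 8 and 7 matches, while *Pcdh17*, with most CpG, had 3 and *Pcdh15*, with 8 CpG, had 4. Matches of the motif on both strands can overlap each other. Matching letters do not show a bound site. A window covers 1 annotated start. For *Pcdh7*, *Pcdh9* and *Pcdh15* the windows lie wholly inside the locus, and for *Pcdh15* far from the start of the locus.

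These windows are shown because they hold the extremes of CpG number and a pair with like CpG number and unlike level, with each CpG in capitals and the sequence read 5' to 3' on the strand of the gene. They are *Pcdh17* (chr14:84443313-84443612, plus strand, 26 CpG), *Pcdh10* (chr3:45378148-45378447, plus strand, 24 CpG), *Pcdh18* (chr3:49757267-49757566, minus strand, 23 CpG) and *Pcdh20* (chr14:88471347-88471646, minus strand, 4 CpG).
Pcdh17: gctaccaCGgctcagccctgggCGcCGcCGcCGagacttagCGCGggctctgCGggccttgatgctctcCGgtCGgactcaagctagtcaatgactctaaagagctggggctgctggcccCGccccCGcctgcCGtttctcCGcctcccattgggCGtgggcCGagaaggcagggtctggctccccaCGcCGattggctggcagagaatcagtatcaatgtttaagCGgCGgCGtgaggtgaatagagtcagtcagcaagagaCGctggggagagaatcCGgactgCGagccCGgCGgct
Pcdh10: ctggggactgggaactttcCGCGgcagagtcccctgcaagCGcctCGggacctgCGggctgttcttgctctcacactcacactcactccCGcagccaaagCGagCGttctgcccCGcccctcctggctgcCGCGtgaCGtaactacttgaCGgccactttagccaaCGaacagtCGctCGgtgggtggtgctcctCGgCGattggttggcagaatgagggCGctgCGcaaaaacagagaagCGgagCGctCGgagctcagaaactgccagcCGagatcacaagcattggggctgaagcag
Pcdh18: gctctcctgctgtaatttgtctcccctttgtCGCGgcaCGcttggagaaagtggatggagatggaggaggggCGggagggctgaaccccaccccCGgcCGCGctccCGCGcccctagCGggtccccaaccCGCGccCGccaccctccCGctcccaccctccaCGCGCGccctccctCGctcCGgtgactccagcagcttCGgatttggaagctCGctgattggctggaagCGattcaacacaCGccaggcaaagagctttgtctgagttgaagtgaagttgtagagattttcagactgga
Pcdh20: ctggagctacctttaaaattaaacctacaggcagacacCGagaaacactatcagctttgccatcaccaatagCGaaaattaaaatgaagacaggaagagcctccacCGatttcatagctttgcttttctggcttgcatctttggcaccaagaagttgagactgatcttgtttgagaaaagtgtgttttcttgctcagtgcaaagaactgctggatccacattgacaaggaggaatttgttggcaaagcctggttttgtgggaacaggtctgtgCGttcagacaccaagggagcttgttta

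The number of CpG in these windows did not order the levels. *Pcdh10* and *Pcdh18*, with 24 and 23 CpG and G+C shares of 62.3% and 63.0%, had 0.195 and 4.30 base mean per kb, a ratio of 22.0 in favour of *Pcdh18*. Their loci differ in length, and the ratio was 5.53 on base means and 8.80 per kb of transcript. *Pcdh20*, with 4 CpG and a G+C share of 43.7%, had 2.86 per kb of locus, against 2.91 for *Pcdh19* with 18 CpG, but per kb of transcript *Pcdh19* was 8.26 times higher. *Pcdh17*, with most CpG, had 0.615 per kb. Values per kb of transcript divide reads counted over introns too by exon length alone, which lifts genes with long introns. The levels carry no replicate error, so these ratios are descriptions of the pooled libraries.

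Set against each other as groups, the 35 clustered entries had a median of 5.53 base mean per kb and the 12 single genes 0.542, a ratio of 10.2. This ratio depended both on how overlapping entries were counted and on the length used. With the gamma cluster alone taken as 1 entry, the clustered median was 0.931 and the ratio 1.72, with the gamma and alpha clusters each taken as 1 entry they were 0.870 and 1.60, and with the beta genes alone 0.735 and 1.35. With all entries kept but levels set per kb of transcript without introns, the clustered median was 16.8, the single median 8.95 and the ratio 1.87. Per kb of locus, the beta genes overlapped the single genes over nearly their whole range, from 0.0638 to 5.53 against 0.0180 to 10.6. On that scale 13 of 16 beta genes were above the single median. Per kb of transcript no beta gene was, with *Pcdhb2*, the highest, at 5.45 against a single median of 8.95. The transcript scale, however, divides reads counted over introns too by exon length alone, which lifts genes with long introns. *Pcdh9* had 0.214 per kb of locus and 50.7 per kb of transcript, whereas the beta genes have 1 exon each. The order of beta and single genes on the transcript scale therefore partly reflects intron content. By base mean, which is not corrected for length, *Pcdhb2* at 15.3 was also below the single median of 55.7. It was above *Pcdh10* at 11.0 and *Pcdh12* at 2.93. Among all entries, the clustered median was at percentile 39.5 and the single median at percentile 19.3.

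The other cadherins gave a scale for these levels. Of 18 classical and type II cadherins 3 were above the median of all entries, with *Cdh1*, the E-cadherin of ESCs, highest at 169.7 base mean per kb, *Cdh12* lowest at 0.0295 and a median of 0.517. Of 8 Fat, Dachsous and Celsr genes, large cadherins of planar polarity, 4 were above it, from 0.175 for *Fat4* to 236 for *Fat1*, with a median of 8.25. The 4 cadherin-related genes with an entry were all below it, from 0.0798 for *Cdhr3* to 2.05 for *Cdhr1*. The single protocadherins, with a median of 0.542, were thus near the classical and type II cadherins, whose level was likewise low except for a few genes. The gamma entries, at 23.1 to 31.2 per kb, were below *Fat1*, *Cdh1* and *Cdh3* (63.5) and above the median of each of these lists. *Celsr2* (30.3) and *Celsr3* (24.6) lay within the gamma range.

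The factors that act on clustered protocadherin promoters were well expressed. All 11 genes of the cohesin and CTCF list were above the median of all entries, from 38.4 base mean per kb for *Stag1*, a cohesin subunit, to 253 for *Rad21*, the kleisin of cohesin, with a median of 100.1. All 7 measured genes known to silence clustered protocadherins or to act with their silencers were above it too, from 18.3 for *Dnmt3a*, a de novo DNA methyltransferase, to 1543 for *Trim28*, a corepressor of zinc-finger proteins. Of 14 intracellular partners of protocadherins 10 were above it, from 3.13 for *Ret*, a receptor kinase, to 79.4 for *Rac1*, the GTPase upstream of the WAVE complex.

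**Figure D5:**
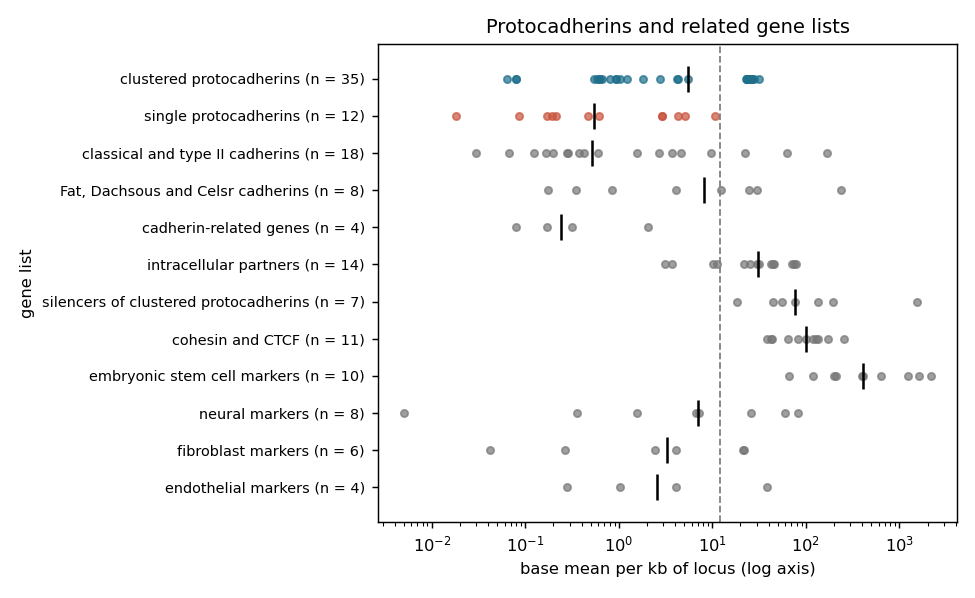
Base mean per kb of locus (log axis) of each gene in the clustered and single protocadherins and in 10 related lists, with black bars at the medians and a dashed line at the median of all entries. The clustered points fall into a group at 23.1 to 31.2, the gamma entries, and a lower group from 0.0638 to 5.53, while the single genes run from 0.0180 to 10.6.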

How the data were processed

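Nuclear RNA from 3 UNT and 3 OHT cultures of *Rybp* fl/fl;*Yaf2* -/- ESCs was depleted of rRNA and sequenced with a strand-specific kit as paired reads of 40 bases. The authors set aside rRNA reads with bowtie2 and mapped the others to mm10, first in STAR and, where that failed, in bowtie2. The authors counted reads with their own script over a refGene set filtered on size, mappability and unique ends, and ran DESeq2 at default settings. The submitters' processing notes list the same tools. Tool versions are not given in the sources used here.

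The deposited table gives, for 20633 RefSeq identifiers, the base mean, used here as a signal that is never negative. Its other columns hold the authors' own comparison of OHT with UNT cells (fold change, its standard error, test statistic, p-values and a threshold flag) and were not used. The table as read here gives 1 pooled value per entry, so the planned test of OHT against UNT cells could not be run, replicates could not be averaged and no p-value is given. The check of *Rybp* by group could not be made for the same reason. The total count per library is unknown.

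Symbols, loci and promoters came from RefSeq (GRCm38.p6, the build of mm10), exons and transcripts from GENCODE vM21 on the same build, and 20560 identifiers received a symbol. Base means were divided by the locus length in kb, introns included, because nuclear RNA was counted over whole loci, and percentiles were taken over the 19133 entries with a locus and a base mean above 0. No filter on low values was applied and no pseudocount was used, so all 47 members are described. The base mean of 1 read in each library (0.113 to 0.251) was estimated from the low values, and entries with base means under 10 were solved for whole reads per library with a tolerance of 7e-10. On simulated data, 100% of 400 low entries were solved correctly. Stretches of 40 bases in transcripts were searched on both strands in 141767 transcripts. Python 3.11.15 was used.

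The members and gene lists were chosen with earlier results of these data known. Values are given for every single gene, for the 5 highest and 5 lowest clustered genes, for both alpha genes, and for the highest and lowest gene of each related list, and other genes are named after their values were seen. Alternatives were the transcript length without introns, the sum of all entries of a symbol, the lowest entry, a base mean of at least 10, the mean of log2 values, the beta genes alone, and another set of entries for the percentiles. Added after seeing the data were the gamma cluster as 1 entry, the gamma and alpha clusters as 1 entry each and the span of each entry's own transcript. Protein sequences were not used here.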

Additional observations from a re-analysis of the deposited data

How the results depend on the processing

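Of 26 alternative values, 12 stayed within 1.5 times the reported value, or within 10 percentile points. None of the ratios computed for the clustered to the single median was below 1. Transcript length was not combined with the beta genes alone or with a cluster as 1 entry, however. Per kb of transcript every beta gene was below the single median of 8.95, the highest being *Pcdhb2* at 5.45. The beta genes alone would thus give a ratio below 1 on that scale. That scale divides reads counted over introns too by exon length alone. It lifts the single genes, which have introns, and not the beta genes, which have 1 exon each. With transcript length without introns, the clustered median became 16.8 base mean per kb, the single median 8.95 and their ratio 1.87. With only base means of at least 10, the clustered median was 23.5 and the ratio 38.2. With the mean of log2 values the ratio was 6.48. With the beta genes alone the clustered median was 0.735 and the ratio 1.35, with the gamma and alpha clusters as 1 entry each 0.870 and 1.60, and with the gamma cluster alone as 1 entry 0.931 and 1.72, the last pair of alternatives chosen after seeing the data. Against entries with base means of at least 10, the clustered median was at percentile 25.9 and the single median at 5.68. The sum of entries and the lowest entry gave the reported values, as each symbol had 1 entry. Their values could not move, yet they are counted among the 12, which therefore overstate the stability.

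The level of each gene is 1 pooled value, so its replicate error is unknown, and base means near 10 rest on few reads (between 43.7 and 97.3 for *Pcdh10*). No paired analysis was possible because the values are means over all 6 libraries. For the same reason the planned fits of OHT against UNT cells, the fit without each replicate and the other normalizations were not run.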
